A study of Mus musculus with 4 samples.

Results

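Interferon-stimulated genes were examined in mouse peritoneal macrophages, the resident phagocytes of the abdominal cavity, after microcurrent stimulation (MCS), a weak pulsed current applied through the skin of the abdomen and back. The members are 47 named genes that interferons are known to induce; they were chosen by name, with no filter on expression, and 47 of 47 are among the 15298 genes of the expression table. The RNA came from CD11b+ F4/80+ Ly6G- cells sorted from female BALB/c mice aged 6 weeks, with no modified allele named. Control mice went through the same anesthesia and pad placement without current, so exposure to isoflurane is common to the 4 libraries. Cells were collected at zeitgeber time (ZT) 2, directly once MCS had ended, or at ZT14, early in the dark period. The treated mice of ZT14 had received MCS at ZT2 of the same day. Cells of ZT2 thus came directly after anesthesia and those of ZT14 hours later. Time of day and time since anesthesia cannot be told apart. There was 1 library for each of control at ZT2, MCS at ZT2, control at ZT14 and MCS at ZT14, and how many mice each one pooled is not stated in the sources read. No value therefore has a replicate. Single conditions could not be tested against each other; the only test, given with the count test, was of terms for time and MCS in an additive model over the 4 libraries. Differences between conditions cannot be told apart from differences between mice or preparations.

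Type I interferons signal through the receptor pair IFNAR1 and IFNAR2 and the kinases JAK1 and TYK2 to a transcription factor complex that includes STAT2 and IRF9 and binds the interferon-stimulated response element in the promoters of its targets. Interferon gamma acts through its own receptor, IFNGR1 and IFNGR2, and induces guanylate-binding proteins and immunity-related GTPases in macrophages. Many of the products sense foreign nucleic acids, block viral entry or replication, or attack intracellular pathogens, and tissue macrophages hold a low tonic level of the program without infection.

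The sequence shared by these genes was looked at first, because the response element is the textbook feature of genes in this pathway and was not used to choose them. RefSeq promoters of build GRCm38.p6 (250 bases before to 50 after the start) were matched by symbol for 36 of the 47 genes. The core of the response element, GAAA followed by 2 bases of any kind (NN) and GAAA again, or TTTC, NN and TTTC where it lies on the other strand, was present in 22 of these 36 genes (61.1%), against 3.99% of the 27025 genes with a promoter of the same length. The core TTCNNNGAA of the gamma-activated site, an element of interferon gamma target promoters, which reads the same on both strands, was present in 10 of 36 (27.8%), against 9.55%. Printed here are 160 bases upstream of the start, in the direction of the gene, for 4 genes of very low level here (*Isg15*, *Ifit1*, *Ifit3*, *Rsad2*), for 3 genes that were higher with MCS at ZT14 (*Oas1a*, *Irgm1*, *Bst2*), and for *Irf7*, which differed most between times of day among the transcription factors and held no match. Capitals mark the core on either strand, and overlapping matches run together. The windows are chr4:156200819-156200978 (minus strand) for *Isg15*, chr19:34640729-34640888 (plus strand) for *Ifit1*, chr19:34583369-34583528 (plus strand) for *Ifit3*, chr12:26456453-26456612 (minus strand) for *Rsad2*, chr5:120907526-120907685 (minus strand) for *Oas1a*, chr11:48871421-48871580 (minus strand) for *Irgm1*, chr8:71537473-71537632 (minus strand) for *Bst2* and chr7:141266425-141266584 (minus strand) for *Irf7*.
Isg15: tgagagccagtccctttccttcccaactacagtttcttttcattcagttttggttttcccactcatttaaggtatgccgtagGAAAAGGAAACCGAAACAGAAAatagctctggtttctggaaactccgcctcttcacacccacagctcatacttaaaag
Ifit1: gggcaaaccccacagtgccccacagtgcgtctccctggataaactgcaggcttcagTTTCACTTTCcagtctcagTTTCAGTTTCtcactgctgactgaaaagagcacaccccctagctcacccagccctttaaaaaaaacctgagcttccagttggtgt
Ifit3: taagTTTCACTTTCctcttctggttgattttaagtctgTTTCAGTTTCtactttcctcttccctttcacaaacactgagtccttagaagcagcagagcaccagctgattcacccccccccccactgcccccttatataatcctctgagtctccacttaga
Rsad2: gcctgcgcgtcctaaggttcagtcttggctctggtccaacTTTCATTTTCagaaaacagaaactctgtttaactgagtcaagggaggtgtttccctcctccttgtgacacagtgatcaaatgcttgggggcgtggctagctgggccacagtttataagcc
Oas1a: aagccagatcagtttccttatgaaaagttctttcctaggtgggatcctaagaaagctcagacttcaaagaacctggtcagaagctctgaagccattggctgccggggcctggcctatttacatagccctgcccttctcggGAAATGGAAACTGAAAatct
Irgm1: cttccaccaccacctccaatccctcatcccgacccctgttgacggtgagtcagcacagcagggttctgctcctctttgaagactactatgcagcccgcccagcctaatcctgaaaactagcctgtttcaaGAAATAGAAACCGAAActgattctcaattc
Bst2: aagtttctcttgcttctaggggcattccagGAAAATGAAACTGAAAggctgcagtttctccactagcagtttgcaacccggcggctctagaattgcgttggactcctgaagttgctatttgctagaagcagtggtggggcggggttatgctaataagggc
Irf7: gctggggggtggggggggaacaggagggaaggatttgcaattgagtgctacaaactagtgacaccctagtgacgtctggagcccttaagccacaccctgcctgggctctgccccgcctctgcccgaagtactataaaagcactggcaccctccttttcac

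*Isg15* held 3 overlapping cores, *Oas1a*, *Irgm1* and *Bst2* held 2 overlapping cores each, *Ifit1* and *Ifit3* held 2 separate ones, and *Rsad2* held 1. A match describes letters in a window and is not a binding site shown in these cells.

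Values are CPM, read counts that the authors scaled to a common library size, and each could be converted back to whole reads; 1 read was worth 0.102 to 0.116 CPM, and a library held between 8365590 and 9953243 reads. Log2 ratios were computed after adding 0.1 CPM, which shrinks the ratio of genes at low level. Beside each ratio stands a 95% counting interval, an exact conditional binomial (Clopper-Pearson) interval on the reads, which covers counting error only. The criterion for a changed gene, taken from the study's methods, was a log2 ratio of more than 1 in size together with a log2 mean level above 0. The macrophage markers were abundant in every library, with *Lyz2* at 17344 to 18847 CPM, *Itgam* (CD11b) at 4214 to 5162 CPM and *Adgre1* (F4/80) at 1086 to 1900 CPM, while *Ly6g* was not analysed here. Markers of other cells were present too and differed between libraries; their summed levels are given beside the results they accompany. In bulk RNA, fewer cells of a type and less RNA per cell cannot be told apart.

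The 47 genes together made up 2119 CPM in control at ZT2, 2132 CPM in MCS at ZT2, 1944 CPM in control at ZT14 and 2067 CPM in MCS at ZT14. Control at ZT14 was thus the lowest library for the sum, and it was the lowest library for 26 of the 47 genes, against 23.2% of all genes. It was the highest library for 4 of them, against 22.6% of all genes. Levels were spread widely: 4 genes had a mean of at least 100 CPM (*Ifitm3*, *Parp14*, *Ifitm2* and *Gbp7*), 35 had a mean of at least 10 CPM, and 6 were under 3 CPM. The 6 low genes were *Ifit1*, *Ifit2*, *Ifit3*, *Isg15*, *Rsad2* and *Usp18*, genes that are among the most inducible by type I interferon, and each rested on 4 to 28 reads in a library. Per kilobase of the longest transcript, the level averaged over the 4 libraries was 346 CPM for *Ifitm3* and 233 CPM for *Ifitm2*, which code for membrane proteins that block virus entry at the endosome. Next in level per kilobase came *Ifi27l2a* at 85.2 CPM, *Irf1* at 29.9 CPM and *Bst2* at 28.1 CPM. At the low end of the same scale stood *Ifit1* at 0.478 CPM, *Ifit2* at 0.453 CPM and *Rsad2* at 0.258 CPM.

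**Figure D1:**
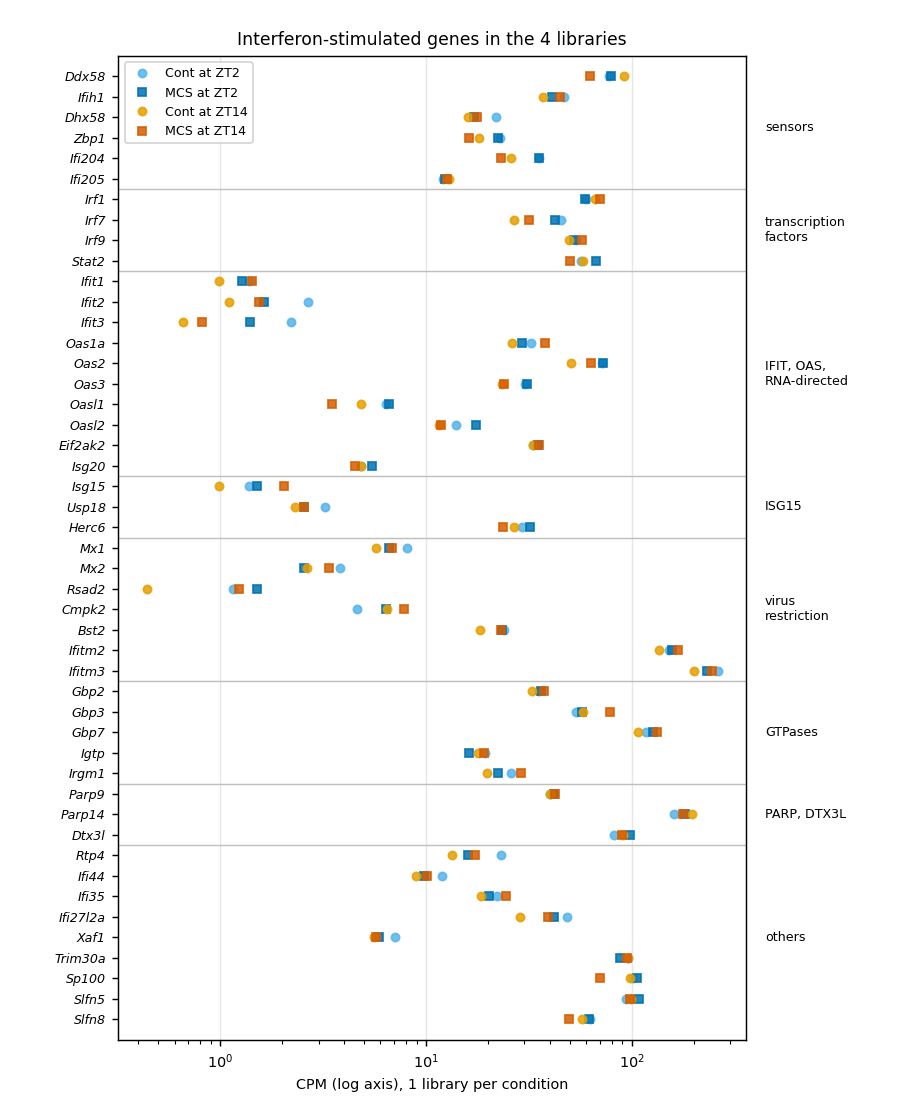
CPM (log axis) of the 47 interferon-stimulated genes in each library, grouped by role; circles are control, squares are MCS, blue is ZT2 and orange is ZT14, with 1 library per condition and so no error bars. *Ifitm3* and *Parp14* lie at the top of the range and the IFIT genes, *Isg15* and *Rsad2* near 1 CPM, and control at ZT14 is the lowest point for 26 genes.

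The first comparison asked how the genes differed between the light and dark times of collection in mice without current. These times also differed in the time since anesthesia. At ZT2, 35 of the 47 genes were higher than at ZT14 and 12 were lower, and the median log2 ratio was 0.31; over all genes 51.8% were higher and the median was 0.02. The median was smaller, 0.14, for the 35 members with a mean of at least 10 CPM, of which 24 were higher, against -0.02 for 8596 other genes at that level, of which 3889 were higher. By the criterion 2 genes were changed, *Ifit2* and *Ifit3*, both higher at ZT2, out of 46 that passed the minimum level (background 3.61% of all genes, 2.42% in the higher direction). The counting interval lay above 0 for 17 genes (13.6% of all genes) and below 0 for 2 genes (15.9%). The 17 comprised sensors, *Irf7*, OAS and IFIT genes, *Bst2*, *Ifitm2*, *Ifitm3*, *Gbp7*, *Irgm1*, *Rtp4* and *Ifi27l2a*, whereas the 2 were *Ddx58* and *Parp14*.

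*Irf7*, the transcription factor that amplifies type I interferon production, was at 45.5 CPM in control at ZT2, 42.5 in MCS at ZT2, 26.8 in control at ZT14 and 31.6 in MCS at ZT14. Both ZT2 libraries were above both ZT14 libraries. On the log2 scale ZT2 exceeded ZT14 by 0.76 (0.53 to 1.0) in control and by 0.43 (0.20 to 0.65) in MCS. *Rtp4*, an interferon-induced protein that restricts flaviviruses, was at 23.1 CPM in control at ZT2, 16.0 in MCS at ZT2, 13.3 in control at ZT14 and 17.4 in MCS at ZT14, a log2 ratio of ZT2 to ZT14 of 0.79 (0.46 to 1.13) in control. Here control at ZT2 stood above the other three, and in MCS the ratio between times was -0.12 (-0.45 to 0.21). *Ifi27l2a*, a small interferon-induced protein, was at 48.5, 41.6, 28.5 and 39.2 CPM in the same order of libraries, with control at ZT14 apart from the rest at the low end. Its ratio between times in control was 0.77 (0.54 to 1.0).

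*Ifit2* and *Ifit3* code for antiviral proteins of the IFIT family, and both were scarce. *Ifit2* was at 2.66 CPM (23 reads) in control at ZT2, 1.62 (14 reads) in MCS at ZT2, 1.10 (10 reads) in control at ZT14 and 1.53 (15 reads) in MCS at ZT14. *Ifit3* was at 2.19 CPM (19 reads), 1.39 (12 reads), 0.659 (6 reads) and 0.818 (8 reads) in the same order. Control at ZT2 was the highest library for both, with log2 ratios of ZT2 to ZT14 in control of 1.20 (0.15 to 2.51) for *Ifit2* and 1.60 (0.35 to 3.35) for *Ifit3*. *Ifit3* shares 97.4% of its longest transcript with *Ifit3b*, so reads of the pair may have been split between them.

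Of the OAS genes, whose products make the second messenger that activates RNase L, *Oas2* was at 71.7 CPM in control at ZT2, 72.5 in MCS at ZT2, 50.4 in control at ZT14 and 63.2 in MCS at ZT14. The ratio of ZT2 to ZT14 was 0.51 (0.33 to 0.69) in control and 0.20 (0.04 to 0.36) in MCS. *Oas1a*, *Oas3* and *Dhx58* were also higher at ZT2 than at ZT14 in control beyond counting error, *Dhx58* by 0.45 (0.13 to 0.78). In the other direction, *Parp14*, an ADP-ribosyltransferase linked to interferon signalling, was at 161 CPM in control at ZT2, 181 in MCS at ZT2, 196 in control at ZT14 and 176 in MCS at ZT14, a ratio of -0.28 (-0.38 to -0.18) between times in control. *Irf1*, the early factor of the interferon gamma response, was at 59.6, 59.0, 66.5 and 70.0 CPM in that order of libraries and so lower at ZT2 in both treatments. Its ratio of ZT2 to ZT14 in control, -0.16 (-0.33 to 0.01), had an interval that included 0. In MCS the ratio was -0.25 (-0.41 to -0.08).

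Markers of other cells moved with time of day in control as well. The 6 B cell markers summed to 1172 CPM at ZT2 and 1435 CPM at ZT14, and 6 of 6 were lower at ZT2. The 5 natural killer markers that could be measured of 6 summed to 33.3 CPM and 18.5 CPM, with 5 of 5 higher at ZT2. The 6 mast cell markers summed to 1818 CPM and 1183 CPM, and the 6 mesothelial and fibroblast markers to 19.5 CPM and 5.71 CPM, each with 6 of 6 higher at ZT2. The 5 measured of 6 plasmacytoid dendritic cell markers summed to 181 and 209 CPM, mostly *Tcf4*, with *Siglech* at 1.15 and 0.549 CPM. The 5 conventional dendritic cell markers summed to 41.3 and 33.6 CPM, the 6 T cell markers to 27.6 and 18.3 CPM, and the 6 markers of small peritoneal macrophages and monocytes to 791 and 736 CPM, with *Ly6c2* at 3.12 and 0.879 CPM. None of these markers was at 0 in a control library, and their part in the differences of the interferon-stimulated genes was not tested.

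In MCS the same comparison of times gave another picture. At ZT2, 22 of the 47 genes were higher than at ZT14 (52.8% of all genes) and 25 were lower, the median log2 ratio was -0.02, and by the criterion 0 were changed (background 5.83%). The counting interval lay above 0 for 13 genes (21.9% of all genes) and below 0 for 6 genes (22.2%). *Ifi204*, a DNA sensor, was at 35.2 CPM in control at ZT2, 35.4 in MCS at ZT2, 25.8 in control at ZT14 and 23.2 in MCS at ZT14, with a ratio in MCS of 0.61 (0.36 to 0.86) and in control of 0.45 (0.20 to 0.70). Both ZT2 libraries lay above both ZT14 libraries; 21.2% of its longest transcript is shared with *Mndal*. *Zbp1*, a sensor of Z-form nucleic acid, followed the same order at 22.9, 22.4, 18.1 and 16.2 CPM, with a ratio in MCS of 0.47 (0.16 to 0.78). *Oasl2* was at 14.0, 17.5, 11.5 and 11.8 CPM and *Herc6*, the mouse ligase for ISG15, at 29.3, 32.1, 26.7 and 23.5 CPM, with ratios in MCS of 0.57 (0.22 to 0.94) and 0.45 (0.19 to 0.71).

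The 5 GTPase genes among the members code for proteins that attack the vacuoles of intracellular pathogens. They were lower at ZT2 than at ZT14 in MCS in 5 of 5 and higher in control in 4 of 5. Over all genes 52.8% were higher at ZT2 in MCS and 51.8% in control. The counting interval lay below 0 in MCS for 2 of the 5, *Gbp3* and *Irgm1*. It lay above 0 in control for 2 of the 5, *Gbp7* and *Irgm1*. GTPase genes outside the members went both ways. In MCS the interval lay above 0 for *Gbp4* and *Iigp1* and below 0 for *Ifi47*. In control it lay above 0 for *Gbp6*, *Gbp9* and *Iigp1* and below 0 for *Gbp5* and *Irgm2*. *Gbp3* was at 53.6 CPM in control at ZT2, 57.3 in MCS at ZT2, 57.8 in control at ZT14 and 78.2 in MCS at ZT14, and its ratio in MCS was -0.45 (-0.62 to -0.28). The MCS library at ZT14 stood above the other three, which lay within 5 CPM of each other. The comparisons of times share their libraries with those of MCS and control, so the values are set side by side and are not separate evidence.

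Between the MCS libraries the 6 mast cell markers summed to 2240 CPM at ZT2 and 952 CPM at ZT14, with 6 of 6 higher at ZT2. The 5 measured of 6 neutrophil markers summed to 73.9 and 5.32 CPM, and the 5 measured of 6 natural killer markers to 45.5 and 18.5 CPM, each with 5 of 5 higher at ZT2. The 5 measured of 6 plasmacytoid dendritic cell markers summed to 195 and 151 CPM, with 5 of 5 higher and *Siglech* at 2.78 and 0.511 CPM, and the 5 conventional dendritic cell markers to 60.3 and 35.5 CPM, with 4 of 5 higher. The 6 markers of small peritoneal macrophages and monocytes summed to 881 and 669 CPM, with 4 of 6 higher and *Ly6c2* at 4.52 and 0.307 CPM. The 6 mesothelial and fibroblast markers summed to 25.5 and 11.4 CPM, the 6 T cell markers to 35.4 and 24.0 CPM and the 6 B cell markers to 1120 and 1012 CPM. In the other direction, the 3 measured of 5 eosinophil markers summed to 67.1 CPM at ZT2 and 81.9 CPM at ZT14. Of these, 2 of 3 were lower at ZT2, and *Il5ra* was higher with an interval above 0. The 5 measured of 6 red blood cell markers summed to 36.4 and 110 CPM and the 6 macrophage markers to 24701 and 27143 CPM. *Hba-a2* was at 0 in the ZT2 library, *Ngp* and *Camp* were at 0 in the ZT14 library, and the part of these cells in the ratios was not tested.

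The question the study's design puts to these genes is how MCS differed from control at each time. Right after stimulation, at ZT2, the genes were split evenly: 23 of 47 were higher with MCS (51.9% of all genes) and 24 lower, the median log2 ratio was -0.01 against 0.01 over all genes, and by the criterion 0 were changed (background 2.21%). The interval lay above 0 for 4 genes, *Stat2*, *Parp14*, *Dtx3l* and *Slfn5* (11.5% of all genes), and below 0 for 4 genes, *Dhx58*, *Ifitm3*, *Rtp4* and *Ifi27l2a* (11.0%). Both counts were at or under the background share. The highest ratio among genes with a mean of at least 10 CPM was 0.32 (-0.03 to 0.68) for *Oasl2*, and the lowest was -0.53 (-0.85 to -0.21) for *Rtp4*. *Dtx3l*, a ubiquitin ligase that acts with PARP9, was at 81.9 CPM in control at ZT2, 98.5 in MCS at ZT2, 90.3 in control at ZT14 and 89.6 in MCS at ZT14, a ratio at ZT2 of 0.27 (0.12 to 0.41). *Slfn5*, of the Schlafen family, was at 93.8, 108, 98.8 and 97.4 CPM, with a ratio of 0.21 (0.07 to 0.34). *Parp9* and *Dtx3l* overlap on opposite strands.

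At ZT14, 33 of the 47 genes were higher with MCS and 14 were lower, with a median log2 ratio of 0.18 against a median of all genes within 0.01 of 0, and 48.7% of all genes were higher. For the 35 members with a mean of at least 10 CPM the median was 0.11, with 23 higher, against a median within 0.01 of 0 for the 8596 other genes at that level, of which 4263 were higher. By the criterion 0 were changed of 45 that passed the minimum level (background 3.4%). The interval lay above 0 for 13 genes (18.7% of all genes) and below 0 for 5 genes (18.9%). *Rsad2*, whose product viperin makes a chain-terminating nucleotide, had a ratio of 1.299, but it rested on 4 reads in control and 12 with MCS, its log2 mean was under 0 and its interval, -0.24 to 3.57, included 0. *Isg15*, a ubiquitin-like modifier, was at 1.39 CPM (12 reads) in control at ZT2, 1.51 (13 reads) in MCS at ZT2, 0.989 (9 reads) in control at ZT14 and 2.05 (20 reads) in MCS at ZT14, with a ratio at ZT14 of 0.98 (-0.15 to 2.37).

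Among genes at 10 CPM or more, *Irgm1*, an immunity-related GTPase, was at 25.9 CPM in control at ZT2, 22.4 in MCS at ZT2, 19.7 in control at ZT14 and 28.8 in MCS at ZT14, a ratio at ZT14 of 0.55 (0.28 to 0.83). *Oas1a* was at 32.2, 29.1, 26.0 and 37.8 CPM, with a ratio at ZT14 of 0.54 (0.30 to 0.78); its longest transcript is shared in full with *Oas1g*. In both genes control at ZT14 was the lowest library and MCS at ZT14 the highest. *Ifi27l2a*, given above, had a ratio at ZT14 of 0.46 (0.23 to 0.69), *Gbp3* of 0.44 (0.27 to 0.60) and *Ifi35*, at 22.2, 20.3, 18.6 and 24.4 CPM, of 0.39 (0.11 to 0.69).

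Both IFITM genes among the members differed in the same direction at this time. *Ifitm1*, which is not a member and was not higher with MCS at ZT14, is given with the further list. *Ifitm3* was at 261 CPM in control at ZT2, 231 in MCS at ZT2, 201 in control at ZT14 and 245 in MCS at ZT14, with a ratio of MCS to control of -0.18 (-0.27 to -0.09) at ZT2 and 0.28 (0.20 to 0.37) at ZT14. *Ifitm2* was at 152, 157, 135 and 168 CPM, with a ratio at ZT14 of 0.32 (0.21 to 0.43), and 44.4% of its longest transcript is shared with *Gm45717*. Each of the 7 members that restrict virus entry, replication or release was higher with MCS at ZT14, and so was each of the 5 GTPases among the members. Over all genes 48.7% were higher. The counting interval lay above 0 for 3 of the 7, *Bst2*, *Ifitm2* and *Ifitm3*. It lay above 0 for 3 of the 5, *Gbp3*, *Gbp7* and *Irgm1*, and for 18.7% of all genes. The sum of the 7, mostly *Ifitm2* and *Ifitm3*, was 370 CPM in control and 456 CPM with MCS. The sum of the 5 was 235 CPM and 297 CPM. GTPase genes outside the members went both ways at ZT14. *Gbp9* had an interval above 0 and *Gbp4* below 0, and *Iigp1*, given with the further list, was lower with MCS.

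The members that were lower with MCS at ZT14 lay outside the virus restriction genes and the GTPases. Their groups, such as the sensors and the transcription factors, also held members that were higher. *Ddx58*, which codes for the RNA sensor RIG-I, was at 77.0 CPM in control at ZT2, 79.2 in MCS at ZT2, 91.9 in control at ZT14 and 62.7 in MCS at ZT14, a ratio at ZT14 of -0.55 (-0.71 to -0.40). *Sp100*, a nuclear body protein, was at 102, 106, 97.4 and 70.0 CPM, with a ratio of -0.48 (-0.62 to -0.33). MCS at ZT14 was the lowest library for both. *Stat2* was at 56.5, 66.6, 57.8 and 50.001 CPM and *Slfn8* at 62.7, 62.1, 57.0 and 49.5 CPM, with ratios at ZT14 of -0.21 (-0.39 to -0.03) and -0.20 (-0.39 to -0.02). *Ifih1*, which codes for the RNA sensor MDA5, went the other way from *Ddx58* at 46.7, 41.1, 37.0 and 44.8 CPM, with a ratio at ZT14 of 0.27 (0.07 to 0.48). Of the other sensors, *Zbp1* and *Ifi204*, given above, *Dhx58*, at 21.8, 17.1, 15.9 and 17.6 CPM, and *Ifi205*, at 12.1, 12.3, 12.9 and 12.7 CPM, had intervals that included 0 at ZT14. *Irf9*, the DNA-binding partner of STAT2, was at 53.5, 52.2, 49.7 and 57.5 CPM, with a ratio of 0.21 (0.03 to 0.39).

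For several members no comparison gave an interval away from 0. *Eif2ak2*, which codes for the kinase PKR that halts translation on double-stranded RNA, was at 33.0 CPM in control at ZT2, 34.8 in MCS at ZT2, 33.2 in control at ZT14 and 35.3 in MCS at ZT14. *Parp9* was at 39.8, 41.8, 40.1 and 42.2 CPM and *Trim30a*, a negative regulator of NF-kappaB signalling, at 95.4, 87.4, 95.7 and 94.3 CPM. The intervals of these 3 genes included 0 in each of the 4 comparisons. *Bst2*, whose product tetherin holds budding virus on the cell surface, was at 24.0, 23.4, 18.3 and 23.2 CPM, so that control at ZT14 stood under the other three, with a ratio of MCS to control at ZT14 of 0.34 (0.05 to 0.64). *Gbp7* was at 117, 127, 107 and 133 CPM, with a ratio at ZT14 of 0.31 (0.19 to 0.43). The dynamin-like *Mx1* and *Mx2* were at 5.71 to 8.08 CPM and 2.55 to 3.81 CPM, and *Usp18*, which removes ISG15 and dampens receptor signalling, was at 2.31 to 3.23 CPM. At such levels the intervals were wide, and they included 0 for these 3 genes in each comparison.

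*Ifi44* was at 12.01 CPM in control at ZT2, 9.75 in MCS at ZT2, 8.90 in control at ZT14 and 10.1 in MCS at ZT14, with a ratio of MCS to control at ZT2 of -0.30 (-0.73 to 0.13). *Igtp*, an immunity-related GTPase, was at 19.3, 16.2, 17.8 and 19.2 CPM, with a ratio at ZT2 of -0.25 (-0.58 to 0.08). The nuclease gene *Isg20* ranged over the 4 libraries from 4.499 to 5.45 CPM, the mitochondrial nucleotide kinase gene *Cmpk2* from 4.62 to 7.77 CPM, *Gbp2* from 32.8 to 37.5 CPM and *Xaf1*, which codes for a protein that binds the apoptosis inhibitor XIAP, from 5.60 to 7.04 CPM. The intervals of these 6 genes also included 0 in each of the 4 comparisons.

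**Figure D2:**
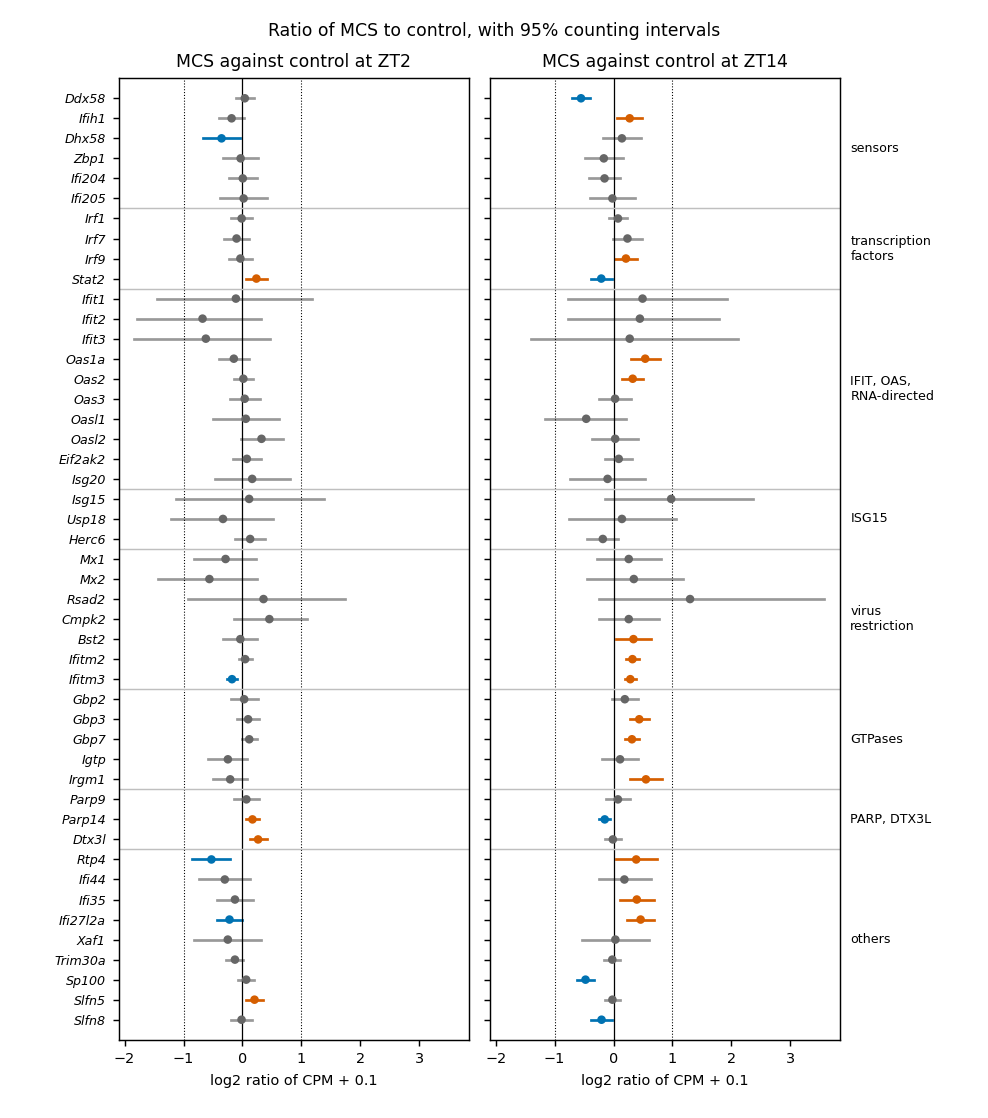
Log2 ratio of MCS to control (points) with 95% counting intervals (lines) for the 47 genes at ZT2 and at ZT14, by role; orange marks intervals above 0, blue intervals below 0, gray those that include 0, and dotted lines mark a log2 ratio of 1 in size. At ZT2, 4 genes are orange and 4 blue; at ZT14, 13 are orange and 5 blue, and lines are long where a gene has few reads.

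**Figure D3:**
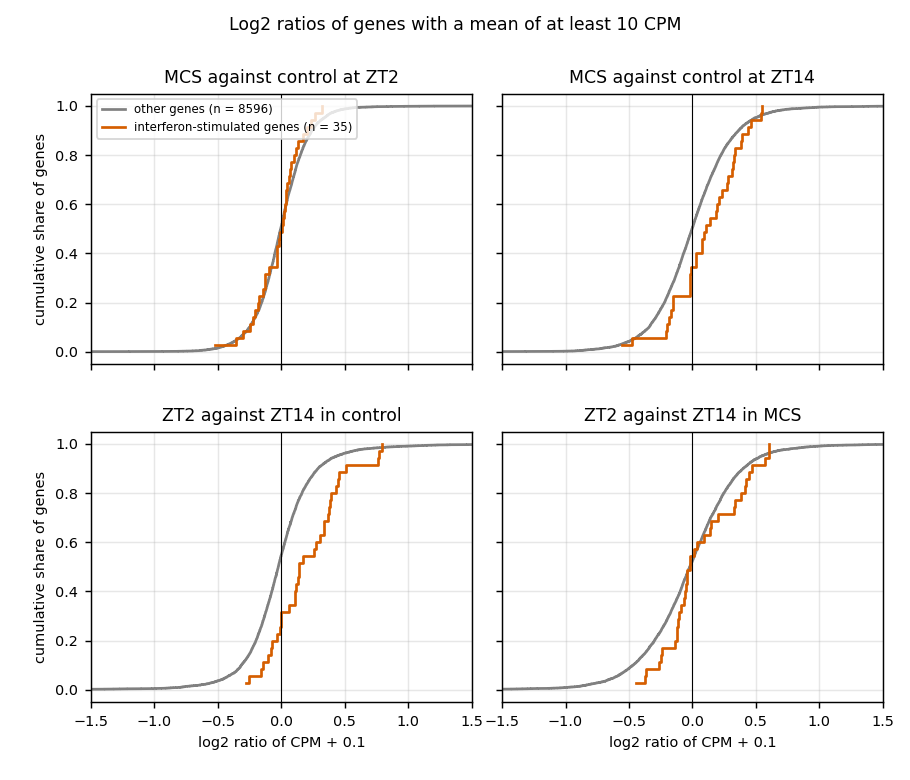
Cumulative share of genes by log2 ratio for the 35 interferon-stimulated genes and the other genes with a mean of at least 10 CPM, in the 4 comparisons. The curve of the members lies to the right of the other genes for ZT2 against ZT14 in control and for MCS against control at ZT14, and near it for MCS against control at ZT2.

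Markers of other cells differed between the ZT14 libraries too. The 6 B cell markers summed to 1435 CPM in control and 1012 CPM with MCS, 6 of 6 lower with MCS. The 6 mast cell markers summed to 1183 and 952 CPM, with 6 of 6 lower, and the 5 measured of 6 plasmacytoid dendritic cell markers to 209 and 151 CPM, with 4 of 5 lower. The 3 measured of 5 eosinophil markers summed to 50.9 and 81.9 CPM, with *Ccr3* at 1.32 and 33.8 CPM. Of these, 2 of 3 were higher with MCS, and *Il5ra* was lower, at -0.52 with an interval below 0. The 5 measured of 6 red blood cell markers summed to 1.32 and 110 CPM, with *Hba-a2* and *Hbb-bt* at 0 in control, and the 5 measured of 6 neutrophil markers summed to 16.9 and 5.32 CPM, with *Ngp* and *Camp* at 0 with MCS. The 6 macrophage markers summed to 24733 and 27143 CPM, and the 5 large peritoneal macrophage markers to 1351 and 1594 CPM. The 6 mesothelial and fibroblast markers summed to 5.71 and 11.4 CPM, with 6 of 6 higher with MCS. The 6 T cell markers summed to 18.3 and 24.0 CPM, also with 6 of 6 higher. The 6 markers of small peritoneal macrophages and monocytes summed to 736 and 669 CPM. At ZT2 the neutrophil markers summed to 14.3 CPM in control and 73.9 CPM with MCS, and the red blood cell markers to 3.23 and 36.4 CPM, with *Hba-a2* at 0 in both libraries and *Hbb-bt* at 0 in control. The mast cell markers summed at ZT2 to 1818 CPM in control and 2240 CPM with MCS, with 6 of 6 higher. Natural killer markers summed to 33.3 and 45.5 CPM, with 5 of 5 higher. Conventional dendritic cell markers summed to 41.3 and 60.3 CPM and T cell markers to 27.6 and 35.4 CPM. Small macrophage and monocyte markers summed to 791 and 881 CPM. Lower with MCS at ZT2 were the B cell markers, 1172 and 1120 CPM, and the macrophage markers, 25482 and 24701 CPM. The part of any of these in the ratios was not tested.

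The intervals given for the difference between times of the MCS ratio are Wald intervals on log counts. Subtracting the MCS to control ratio at ZT2 from that at ZT14 gave a value above 0 for 31 of 47 genes and below 0 for 16, with a median of 0.27 against -0.02 over all genes, and with a median of 0.16 for the 35 members at 10 CPM or more. By the criterion 1 gene was changed, *Ifit2* at 1.12 (-0.32 to 2.62), with an interval that included 0 (background 7.88%, 4.11% in the higher direction). The interval lay above 0 for 13 genes (18.2% of all genes) and below 0 for 6 genes (18.8%). Among genes at 10 CPM or more, the difference was largest for *Rtp4* at 0.91 (0.45 to 1.37), *Irgm1* at 0.76 (0.37 to 1.15) and *Oas1a* at 0.68 (0.34 to 1.02), and lowest for *Ddx58* at -0.59 (-0.81 to -0.38), *Sp100* at -0.54 (-0.74 to -0.34) and *Stat2* at -0.45 (-0.69 to -0.20).

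The ratios were related to transcript length in these libraries, among the members and among other genes. Over the 35 members at 10 CPM or more, Spearman's rho between the longest transcript and the ratio of MCS to control was 0.51 at ZT2 and -0.48 at ZT14; over 8300 other genes at that level it was 0.14 and -0.32. For ZT2 against ZT14 in control rho was -0.39 among the members and -0.11 among the other genes, and in MCS it was 0.31 and 0.28. These are correlations across genes measured in the same libraries, and genes are not independent replicates. Of the members, 7 had a transcript under 2000 bases, and their median ratio at ZT14 was 0.38, against 0.16 for 1348 other short genes, whereas the 28 longer members had a median of 0.05 against -0.03 for 6952 other longer genes. For ZT2 against ZT14 in control the medians were 0.38 for the short members and 0.02 for the other short genes, and 0.11 for the longer members and -0.03 for the other longer genes. *Ifitm2*, *Ifitm3*, *Ifi27l2a*, *Bst2*, *Oas1a*, *Ifi35* and *Rtp4* are these 7 short genes, and *Irgm1* and *Gbp3* are longer. The part of length in the ratios was not tested.

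**Figure D4:**
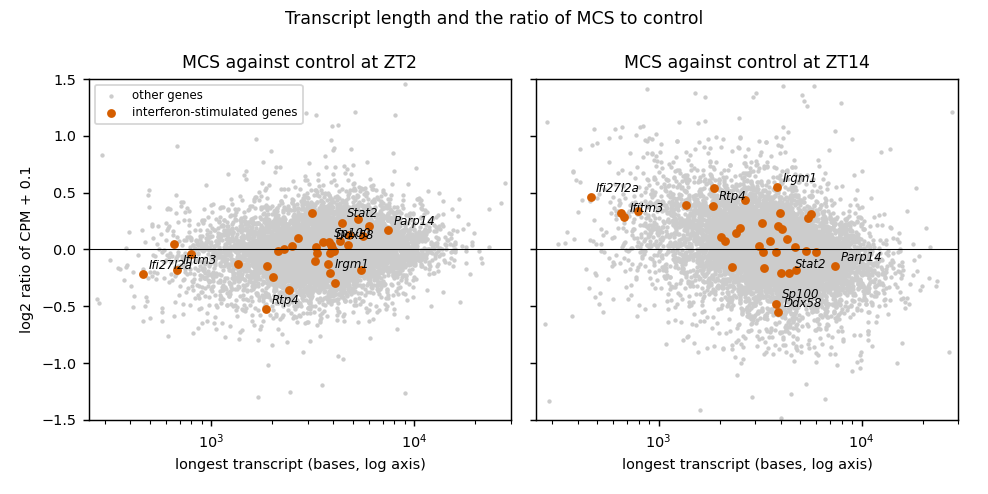
Log2 ratio of MCS to control at ZT2 and ZT14 against the longest transcript of each gene (log axis), for members (orange) and other genes (gray) with a mean of at least 10 CPM. At ZT14 the 7 short members lie above 0, with a median of 0.38, and *Ddx58* and *Sp100* are lowest.

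Genes with the response element core and genes without it were set side by side for the 36 members with a promoter. The 22 with the core had a median ratio of MCS to control of 0.02 at ZT2 and 0.27 at ZT14, and the 14 without had 0.02 and 0.05. The ranges at ZT14 overlapped, from -0.55 to 1.299 with the core and from -0.48 to 0.45 without. Higher with MCS at ZT14 were 16 of the 22 and 9 of the 14. *Ddx58*, *Stat2* and *Slfn8*, which were lower, hold the core, as do *Rsad2* and *Isg15*, which rest on few reads. A link between the core and the ratios was not tested. For ZT2 against ZT14 in control the medians were 0.15 with the core and 0.20 without.

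A count test on the recovered reads bears on replicate variation only through an additive model of time and MCS with 1 residual degree of freedom. In edgeR's quasi-likelihood test with Benjamini-Hochberg adjustment over 12404 genes, 0 of 46 members passed an adjusted p of 0.05 for time, with a lowest adjusted p of 0.0976, while 295 genes (2.38%) did. At an unadjusted p under 0.05, 6 members passed for time, *Ifi204*, *Irf7*, *Ifit3*, *Oas2*, *Oasl1* and *Ifi27l2a* (background 10.4%). For MCS, 0 members passed either way, against 24 genes (0.193%) adjusted and 2.45% unadjusted; this model takes the effect of MCS as equal at ZT2 and ZT14.

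Of the genes upstream in the pathway, 1 of 21 listed interferon ligands could be measured, *Ifnk*, at 0.462 CPM (4 reads) in control at ZT2, 1.62 (14 reads) in MCS at ZT2, 2.09 (19 reads) in control at ZT14 and 1.74 (17 reads) in MCS at ZT14. It was changed by the criterion for MCS against control at ZT2, 1.62 higher, and for ZT2 against ZT14 in control, -1.96. *Ifnb1* was not analysed here. The receptor genes *Ifnar1*, at 117, 124, 138 and 123 CPM, and *Ifnar2*, at 114, 138, 146 and 144 CPM, were lowest in control at ZT2, and *Ifngr1* was at 93.1, 120, 86.9 and 97.2 CPM. Of the 6 receptors, 4 had an interval below 0 and 0 above 0 for ZT2 against ZT14 in control, where 15.9% and 13.6% of all genes did. For MCS against control at ZT2, 3 had an interval above 0 and 0 below 0, beside 11.5% and 11.0% of all genes. Control at ZT2 entered both comparisons. At ZT14 the counts above and below were 1 and 1, beside 18.7% and 18.9%. For the difference between times of the MCS ratio they were 0 and 4, beside 18.2% and 18.8%. For MCS against control at ZT14 the interval lay above 0 for 3 and below 0 for 3 of 7 inhibitors, and above for 1 and below for 4 of 16 genes of sensing and induction, beside 18.7% above and 18.9% below over all genes. For ZT2 against ZT14 in control the counts above and below were 2 and 2 for the inhibitors and 2 and 5 for sensing and induction, beside the same 13.6% and 15.9% of all genes.

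A further list of 51 interferon-induced genes that are not members, of which 48 could be measured, gave 32 genes above and 16 below their ZT14 level at ZT2 in control, where the median log2 ratio was 0.29 and 51.8% of all genes were higher, and 29 higher and 19 lower with MCS at ZT14, with a median of 0.06, where 48.7% of all genes were higher. By the criterion 2 of the 44 that passed the minimum level were changed for ZT2 against ZT14 in control (background 3.61%), 3 of 44 between times in MCS (5.83%), 2 of 44 for MCS against control at ZT2 (2.21%) and 1 of 44 at ZT14 (3.4%). *Iigp1*, an immunity-related GTPase, and *Ccl5*, a chemokine, were changed between times in both treatments. *Iigp1* was at 12.5, 10.1, 5.82 and 3.78 CPM and *Ccl5* at 18.0, 25.2, 6.37 and 9.41 CPM in the order control at ZT2, MCS at ZT2, control at ZT14 and MCS at ZT14. *Ifi27* was changed for MCS against control at ZT14, with a ratio of 1.02, at 30.6, 22.9, 22.1 and 44.9 CPM. *Ifitm1*, at 1.96, 6.84, 2.42 and 1.43 CPM, was changed for MCS against control at ZT2 (1.75) and between times in MCS (2.18). *Ifit1bl1*, at 2.19, 1.04, 1.65 and 1.12 CPM, was changed for MCS against control at ZT2 (-1.004), just past the criterion and with a counting interval that included 0.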

How the data were processed

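Sequenced were peritoneal macrophages in 4 libraries, 1 per condition. The authors trimmed reads with Trimmomatic 0.38, counted them with RSEM 1.3.0 and Bowtie 2 on mm10 (per the submitters' processing notes) and deposited CPM scaled by edgeR. The annotation version and expression filter are not given in the sources used here, and RNA isolation is described differently in the labels and the paper's methods. Library preparation was directional after rRNA depletion. Dividing each column by its smallest step gave whole reads for 100% of values within 0.05 read, and 1 read is the limit of precision; 0 reads still allows 3.

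Log2 ratios used a pseudocount of 0.1 CPM. The interval of a difference of ratios is a Wald interval on log counts. edgeR 4.0.16 (R 4.3.3) tested 12404 genes with at least 40 reads and called 295 for time and 24 for MCS. Ratios and intervals were tested on simulated data. Lengths, overlaps and transcripts shared at 97% identity came from GENCODE and blastn 2.17.0; promoters came from RefSeq. Python 3.11.15 was used, with scipy 1.17.1, numpy 2.4.6, matplotlib 3.10.9 and pandas 2.3.3.

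Members and lists were chosen with earlier results of these data known. Values were given for members past the criterion, the 5 highest and 5 lowest ratios per comparison at 10 CPM or more, transcription factors and sensors; other members named for their role, promoter or position were chosen after their values were seen. Alternatives were other pseudocounts, minimum levels, thresholds and scalings, sums with paralogs, and the count test. The list of JAK-STAT signalling genes is not reported here.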

Additional observations from a re-analysis of the deposited data

Results flagged for a closer look

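In 5 members the ratio of MCS to control lay on opposite sides of 0 at ZT2 and ZT14, with both counting intervals away from 0; the same held for 1252 of 12511 genes tested. The ratio at ZT14 minus that at ZT2 was 0.91 for *Rtp4*, 0.68 for *Ifi27l2a* and 0.46 for *Ifitm3*, which were lower with MCS at ZT2 and higher at ZT14. It was -0.45 for *Stat2* and -0.32 for *Parp14*, which were higher with MCS at ZT2 and lower at ZT14. With 1 library per condition, these differences were not tested beyond counting error.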

How the results depend on the processing

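The count of members past the criterion was small and moved with the settings. With a pseudocount of 1 CPM it was 0 for ZT2 against ZT14 in control and 0 for the difference between times of the ratio of MCS to control, and with a log2 mean above 3 it was 0 and 0. With a pseudocount of 0.01 CPM it was 1 for MCS against control at ZT14 and 2 for the difference, and with no minimum level it was 1 for MCS at ZT14. At an absolute log2 ratio above 0.5 it was 4 for MCS at ZT2, 4 for MCS at ZT14, 7 between times in control, 5 between times in MCS and 15 for the difference. Summed with paralogs, the difference gave 2 and the ratio of *Gbp3* with *Gbp7* between times in MCS was -0.19, although no stretch of *Gbp3* matched another gene at 97% identity; the edgeR test gave 0 for time. The median ratio of the members kept its sign under the alternatives for ZT2 against ZT14 in control and for MCS at ZT14, and the medians near 0 of MCS at ZT2 and of time in MCS changed sign without *Rn45s* (0.0039 and 0.0231). Low members rest on few reads. No paired analysis was possible because each condition has 1 library and the labels give no replicate numbers.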
